A study of Homo sapiens with 4 samples.

Results

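The genes described here are 52 genes that carry human cells from G1 into S phase and copy their DNA, followed in 2 mantle cell lymphoma (MCL) cell lines. They were taken by symbol from a fixed list, with no measured value in the rule for membership. The list was chosen with earlier results of these data known. All 52 had a probe set with a single gene symbol, among 18239 genes on the array, and all 52 passed the brightness minimum that left 10823 genes. The arrays held 132 probe sets for them, between 1 and 7 per gene, and each gene is given by the brightest of them.

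The arrays form 4 groups of 1 array each: REC-1 cells as a control, REC-1 cells with CC-292, Z138 cells as a control and Z138 cells with CC-292. CC-292 inhibits Bruton tyrosine kinase (BTK), which passes on the signal of the B-cell receptor. The labels give 48 h of exposure, but no time for the Z138 control. The dose is 1 uM in the treatment protocol but 1 mM in the CC-292 titles, and no label says what the control cells received. Both are established human lymphoma cell lines, taken from exponential growth, and each line stands for 1 tumour. Since no group has a second array, no p-value is given within a line.

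Entry into S phase is a relay. In G1 the origin recognition complex, with CDC6 and CDT1, loads the MCM2 to MCM7 helicase onto DNA as an inactive ring. Cyclin E with its kinase, and the kinase CDC7 with its partner DBF4, then start the ring by adding CDC45 and the GINS complex. Primase, the polymerases and the clamp PCNA come after that. Most of these genes are transcribed by the E2F factors, which the retinoblastoma protein holds back until cyclin D and cyclin E kinases release them. MCL cells carry a translocation that raises cyclin D1, so this step is of interest in this tumour.

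The promoters of these genes are shown because they hold the sequence through which E2F factors are known to act. RefSeq promoters of assembly GRCh38.p14, from 250 bases before to 50 bases after each annotated start, matched 45 of the 52 genes and gave 61 promoters. The 4 forms of the E2F site searched on both strands were TTTCCCGC, TTTCGCGC, TTTGCCGC and TTTGGCGC, and matches on opposite strands can overlap. Of the 61 promoters 45.9% held at least 1 match, against 3.31% of all 35116 promoters and 5.05% of the 13150 promoters of genes kept on the arrays. Each sequence below covers the 120 bases before the start, 5′ to 3′ on the strand of the gene, with the E2F matches in capitals. CDC25A, CDT1, POLE and RFC3 represent members that were lower in REC-1 with CC-292, MCM6 holds a pair of overlapping matches, PCNA is the clamp, and LIG1 is a member that was not lower.
CDC25A, chr3:48188418-48188537, minus strand: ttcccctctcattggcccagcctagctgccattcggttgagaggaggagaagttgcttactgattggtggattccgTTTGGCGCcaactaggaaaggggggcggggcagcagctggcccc
CDT1, chr16:88803669-88803788, plus strand: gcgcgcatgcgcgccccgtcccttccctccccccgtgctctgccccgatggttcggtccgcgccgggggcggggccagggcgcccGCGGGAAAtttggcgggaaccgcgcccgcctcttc
MCM6, chr2:135876444-135876563, minus strand: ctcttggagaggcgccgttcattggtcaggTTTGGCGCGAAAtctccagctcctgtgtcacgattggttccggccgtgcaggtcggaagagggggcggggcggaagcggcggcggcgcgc
POLE, chr12:132687343-132687462, minus strand: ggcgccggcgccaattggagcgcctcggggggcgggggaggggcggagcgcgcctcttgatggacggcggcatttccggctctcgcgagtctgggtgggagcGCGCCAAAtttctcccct
RFC3, chr13:33818029-33818148, plus strand: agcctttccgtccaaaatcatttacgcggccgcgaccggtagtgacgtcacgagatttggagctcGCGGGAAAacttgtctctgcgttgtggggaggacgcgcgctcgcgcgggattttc
PCNA, chr20:5126623-5126742, minus strand: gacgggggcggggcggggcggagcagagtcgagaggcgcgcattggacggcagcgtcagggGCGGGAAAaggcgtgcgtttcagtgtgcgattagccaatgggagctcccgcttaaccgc
LIG1, chr19:48170345-48170464, minus strand: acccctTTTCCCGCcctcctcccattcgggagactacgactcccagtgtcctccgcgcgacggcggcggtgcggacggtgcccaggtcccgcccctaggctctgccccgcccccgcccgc
The CDC25A match begins 44 bases before the start, that of CDT1 35, that of POLE 18, that of RFC3 55, that of PCNA 59 and that of LIG1 114. Of the 38 matches in members, 34 began before the start and 27 of them within 100 bases of it.

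Other promoter elements were spread differently. The CCAAT box, bound by NF-Y, was in 52.5% of the members' promoters and in 34.6% of all promoters. It was more frequent in promoters of G2/M and mitosis genes (72.2%) and of other replication genes (60%). TTTGAA, a form of the CHR element of mitotic genes, was in 4.92% of the members' promoters and in 15.2% of all, but in 69.4% of 36 promoters of G2/M and mitosis genes. The E2F site was in 8.33% of those mitotic promoters and in 22.9% of 35 promoters of other replication genes. A match to these letters is a description and no proof of a bound site. The members' promoters were also richer in G and C, at 66.0% against 57.5% of bases over all promoters. For promoters of genes kept on the arrays the share was 63.3%.

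The arrays themselves were alike in scale. Their median signals lay between 4.63 and 4.64 on the log2 scale, and background probes had medians of 3.06 to 3.12. The B-cell genes MS4A1, CD79A, CD79B, PAX5 and CD22 and the MCL genes CCND1 and SOX11 were above the minimum on all 4 arrays, while none of 6 myeloid markers reached it on any array. Of 7 T and NK cell markers, CD3D, CD3G and CD8A reached it on at least 1 array, the brightest being CD3G at 6.07. The erythroid marker HBB was above it on all 4 arrays, at 4.85 to 4.95, while ALAS2 was below it. All differences below are log2 values, so that 1 stands for a 2-fold difference. A member was counted as lower or higher where the signal on one array was at least 25% above that on the other, a log2 difference of 0.32 or more. Bright probe sets of the same member differed with a pooled SD of 0.21 in the REC-1 comparison, 0.16 in Z138 and 0.30 between the control arrays. This spread stands in for an error where a gene has 1 probe set, and it holds no error between cultures or arrays.

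In REC-1 nearly all members had a lower signal on the CC-292 array, most by a small amount. Of the 52 members 49 were below 0, against 57.8% of all genes kept. The median was -0.32, against -0.05 over all genes kept. Lower by at least 0.32 were 26 members, where 17.0% of all genes kept were, and 0 members were higher by as much, against 12.1%. The differences were modest. At 1.5-fold 4 members were lower and 0 higher (4.73% and 4.32% of all genes kept), and at 2-fold 0 and 0 (0.758% and 0.841%). The lowest was CLSPN at -0.84 and the highest LIG1 at 0.06. The SD over members was 0.19, against 0.28 over the 8007 genes in the same range of brightness. It lay within the pooled SD of 0.21 between bright probe sets of the same member, and the order of members and roles was not tested. In such bulk samples, fewer cells in S phase and less RNA per cell cannot be told apart.

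Where a member had several probe sets, most gave the same direction. Among 126 member probe sets that reached the minimum, 114 were below 0 in REC-1 (90.5%), against 55.0% of all 25739 such probe sets. A second probe set reached the minimum for 35 members and was below 0 for 34 of them, with a median of -0.28. Of the 26 lower members, 17 had such a second probe set, which was below 0 for all 17 and lower by at least 0.32 for 12.

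Technical controls also had medians below 0 in REC-1, to a smaller extent than the members, and above 0 in Z138. The 9 hybridization control probe sets had a median difference of -0.07 in REC-1 and 0.09 in Z138, and the 12 probe sets for poly-A spike-ins had medians of -0.17 and 0.09. For ACTB, the signal at the 3' end exceeded that at the 5' end, which degraded RNA loses first, by 0.77 on the REC-1 control and 0.53 on the REC-1 CC-292 array, and by 1.12 and 1.11 in Z138. For GAPDH the same quantity lay between -0.32 and -0.24 on all 4 arrays, and was -0.32 and -0.31 in REC-1. Their part in the results was not tested.

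**Figure D1:**
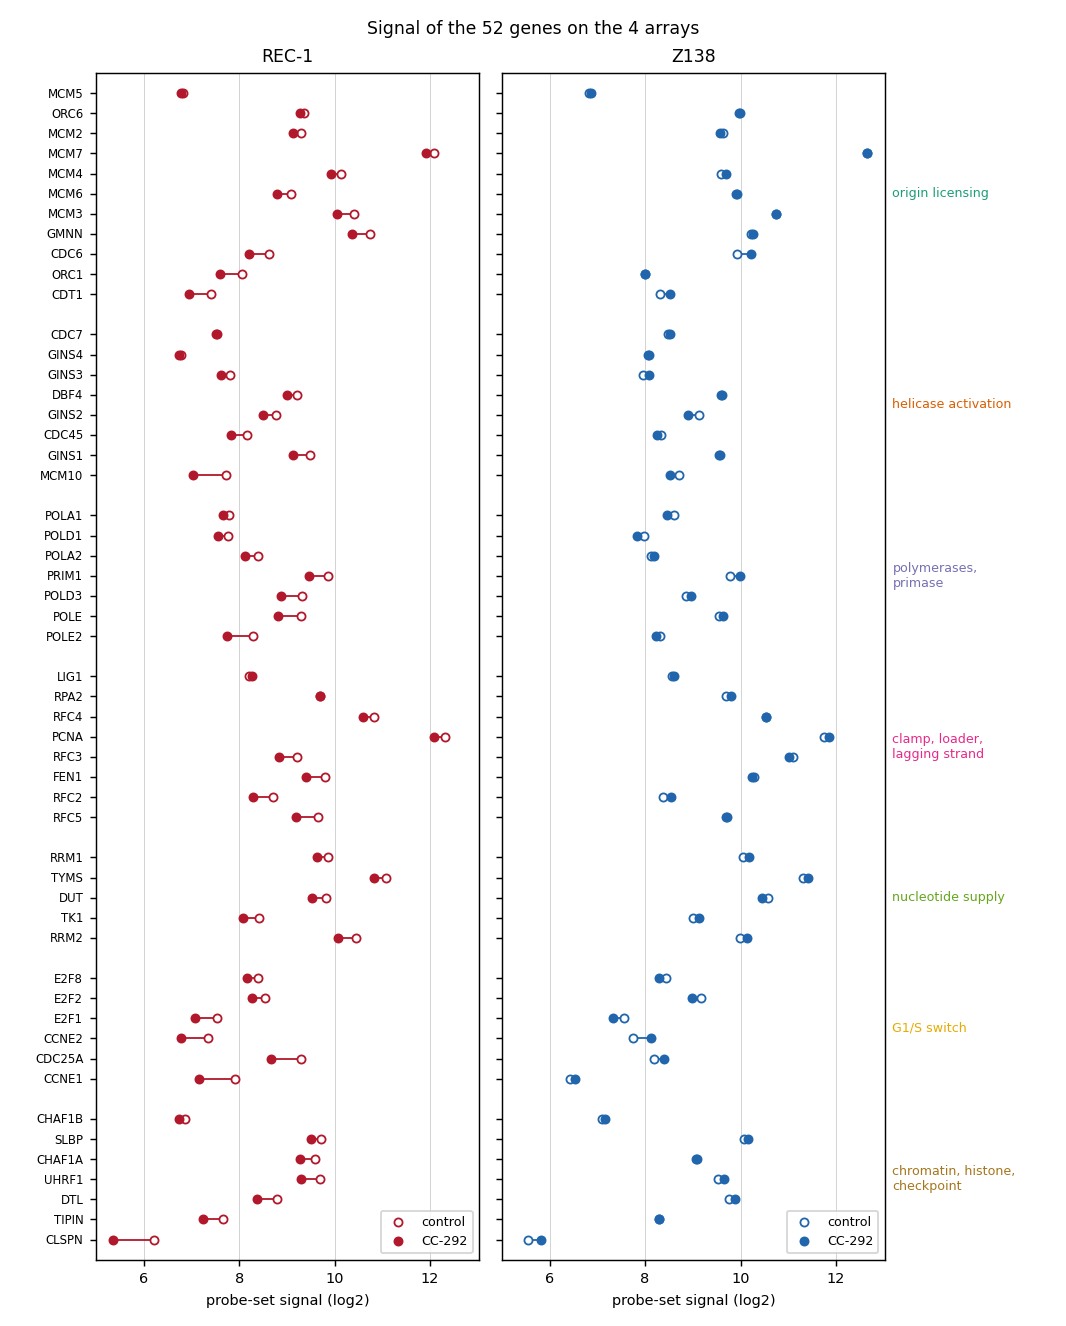
Signal of the 52 genes (log2 probe-set signal, horizontal axis) in REC-1 (left) and Z138 (right), with open points for the control and filled points for the CC-292 array. Genes are ordered within their role by the REC-1 difference. Filled points lie to the left of open points for 49 of 52 genes in REC-1 and for 23 of 52 in Z138.

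The G1/S switch had the lowest median of the 7 roles in REC-1, -0.51 over 6 genes, and all 6 were below 0. CCNE1, one of a pair of cyclin E genes that activate CDK2, read 7.91 on the REC-1 control and 7.16 on the CC-292 array, a difference of -0.75 (1.68-fold lower), and 6.42 and 6.53 in Z138. Its only other probe set was dim, with a mean of 3.40 over the 4 arrays, and differed by 0.13. CCNE2, the other cyclin E gene, read 7.36 and 6.78 in REC-1, a difference of -0.57 (SD 0.11 over 2 probe sets), and 7.74 and 8.13 in Z138. Both cyclin E genes were thus lower with CC-292 in REC-1, while in Z138 CCNE1 differed by 0.11, within the spread of probe sets, and CCNE2 by 0.39 (SD 0.11 over 2 probe sets), the only member higher by at least 0.32 there. With the mean of probe sets CCNE2 was at 0.31 in Z138 and no longer counted, while CDC6 (0.41) and CDC25A (0.36) were. CDC25A, the phosphatase that removes the inhibitory mark from CDK2, read 9.30 and 8.67 in REC-1, -0.63 (SD 0.27 over 3 probe sets), and 8.19 and 8.39 in Z138. The activator gene E2F1 read 7.53 and 7.07 in REC-1 and 7.57 and 7.32 in Z138. At -0.25 it was the lowest member in Z138. E2F2, a second activator, read 8.55 and 8.27 in REC-1 and 9.18 and 8.99 in Z138, and the repressor gene E2F8 differed by -0.23 and -0.14. By their brightest probe sets, the 3 E2F genes were thus below 0 in both lines. In Z138, however, the dimmer probe set of E2F2 gave 0.34 and the dimmest of E2F8 gave 0.10.

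Origin licensing genes were all below 0 in REC-1, 11 of 11, with a median of -0.30. CDC6, the loader of the helicase, read 8.62 and 8.21 in REC-1, -0.41 (SD 0.17 over 2 probe sets), and 9.93 and 10.21 in Z138, 0.28 (SD 0.18). Its partner CDT1 read 7.40 and 6.95 in REC-1 and 8.32 and 8.52 in Z138, differences of -0.45 and 0.21. By their brightest probe sets, these are the licensing genes that differed most between the lines in their CC-292 difference. With the mean of 3 probe sets, the REC-1 difference minus the Z138 difference was -0.35 for CDT1 (SD 0.35). ORC1 (-0.47), GMNN (-0.43) and MCM4 (-0.38) then lay below it. GMNN, which encodes the CDT1 inhibitor geminin, differed by -0.38 in REC-1 and 0.05 in Z138. ORC1, the origin recognition subunit that comes and goes with the cell cycle, differed by -0.45 and 0.02. ORC6 differed by only -0.08 and -0.01.

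The helicase ring MCM2 to MCM7 had a median of -0.19 in REC-1, with all 6 genes below 0. MCM2 read 9.29 and 9.12 in REC-1 and 9.63 and 9.58 in Z138. MCM3 read 10.40 and 10.06 in REC-1, -0.34 (SD 0.08 over 4 probe sets), and 10.75 and 10.74 in Z138. It was the only ring gene lower by at least 0.32 in REC-1, and it missed that threshold with quantile normalization, cyclic loess, and the mean or median of its probe sets (-0.315 to -0.198). MCM4 read 10.13 and 9.93 in REC-1 and 9.58 and 9.70 in Z138, and MCM5, with 1 probe set, 6.82 and 6.78 in REC-1 and 6.83 and 6.87 in Z138. For MCM6 the values were 9.09 and 8.80 in REC-1 and 9.93 and 9.91 in Z138, and for MCM7 they were 12.08 and 11.90 in REC-1 and 12.66 and 12.64 in Z138. The ring genes hardly differed in Z138, from -0.05 to 0.12, so that 4 were below 0 and 2 above.

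Helicase activation had the smallest median difference of the roles in REC-1, -0.24, with 7 of 8 genes below 0 and 3 lower by at least 0.32. MCM10, which helps to switch the loaded helicase on, read 7.72 and 7.04 in REC-1, a difference of -0.68, and 8.72 and 8.53 in Z138. Its 3 probe sets disagreed, with -0.68, -0.35 and 0.39 in REC-1 and a mean of -0.22. CDC45 differed by -0.34 (SD 0.17 over 3 probe sets) and GINS1 by -0.36 (SD 0.34 over 3 probe sets) in REC-1. GINS2 read 8.77 and 8.49 in REC-1 and 9.13 and 8.89 in Z138, differences of -0.28 and -0.23 on 1 probe set. GINS3 differed by -0.19 and 0.13, and GINS4 read 6.78 and 6.74 in REC-1 and 8.07 and 8.05 in Z138. The kinase gene CDC7 was at 7.52 and 7.53 in REC-1 and at 8.48 and 8.53 in Z138, and its 3 probe sets had a mean of -0.25 in REC-1. Its partner gene DBF4 differed by -0.20 (SD 0.16 over 7 probe sets) in REC-1 and -0.03 in Z138.

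All 7 polymerase and primase genes were below 0 in REC-1, with a median of -0.39. POLE, the catalytic subunit of the leading-strand polymerase epsilon, read 9.30 and 8.82 in REC-1 and 9.56 and 9.63 in Z138, and its partner POLE2 read 8.29 and 7.76 in REC-1 and 8.32 and 8.23 in Z138. Their REC-1 differences of -0.48 and -0.54 were the lowest of this role, each on 1 probe set. PRIM1, the catalytic primase subunit, read 9.85 and 9.46 in REC-1 and 9.78 and 9.99 in Z138, differences of -0.39 and 0.21 on 1 probe set. POLD3 of the lagging-strand polymerase delta differed by -0.44 (SD 0.30 over 3 probe sets) in REC-1 and 0.09 in Z138, and POLA2 of polymerase alpha by -0.27 and 0.06. POLD1, the catalytic subunit of polymerase delta, read 7.77 and 7.56 in REC-1 and 7.97 and 7.82 in Z138. POLA1, the catalytic subunit of polymerase alpha, differed by -0.12 and -0.14, and is one of 2 members whose REC-1 difference was not below their Z138 difference.

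Clamp, clamp loader and lagging-strand genes had a median of -0.31 in REC-1, with 6 of 8 below 0. PCNA, the sliding clamp, read 12.31 and 12.08 in REC-1 and 11.75 and 11.85 in Z138, a difference of -0.23 in REC-1 (SD 0.12 over 2 probe sets). Of the 4 small subunits of its loader, 3 were lower by at least 0.32. RFC5 read 9.66 and 9.19 in REC-1, -0.47 (SD 0.07 over 3 probe sets), and 9.69 and 9.73 in Z138. RFC2 differed by -0.42 and 0.16, RFC4 by -0.22 and -0.01, and RFC3 read 9.21 and 8.83 in REC-1 and 11.11 and 11.01 in Z138. FEN1, the flap nuclease that trims Okazaki fragments, differed by -0.39 (SD 0.08 over 3 probe sets) in REC-1 and -0.05 in Z138. The exceptions were LIG1, the ligase that seals these fragments, at 8.21 and 8.27 in REC-1 and 8.57 and 8.61 in Z138, and RPA2, a subunit of the single-strand binding protein, at 9.68 and 9.69 in REC-1 and 9.70 and 9.79 in Z138. Both had several probe sets, and their SDs in REC-1 were 0.09 over 6 and 0.12 over 3.

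The 5 genes of nucleotide supply were all below 0 in REC-1, in the narrow range from -0.39 to -0.24, and 4 of 5 were above 0 in Z138. RRM2, the regulated subunit of ribonucleotide reductase, read 10.46 and 10.06 in REC-1 and 9.98 and 10.14 in Z138, with SDs over 2 probe sets of 0.02 and 0.01. REC-1 minus Z138 was thus 0.47 for RRM2 on the control arrays and -0.08 on the CC-292 arrays. RRM1, the large subunit, read 9.86 and 9.62 in REC-1 and 10.05 and 10.18 in Z138. Its 4 bright probe sets were all below 0 in REC-1, and the other one, with a mean signal of 3.58, was at 0.77. TYMS, the thymidylate synthase gene, differed by -0.25 (SD 0.03 over 2 probe sets) and 0.11, the thymidine kinase gene TK1 by -0.33 and 0.13, and the dUTPase gene DUT by -0.28 and -0.12.

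Genes of chromatin assembly, histone supply and the replication checkpoint had a median of -0.40 in REC-1, with 7 of 7 below 0. CLSPN, which encodes the checkpoint mediator claspin, read 6.21 and 5.37 in REC-1, a difference of -0.84 (1.80-fold lower), and 5.55 and 5.83 in Z138. It was the dimmest member, with 1 probe set, and the only one below the 70th percentile of brightness. TIPIN, a fork protection factor that works with claspin, differed by -0.44 in REC-1 (SD 0.18 over 3 probe sets, all below 0) and -0.01 in Z138. DTL, the substrate receptor of the ligase that destroys CDT1 on loaded PCNA, read 8.79 and 8.37 in REC-1 and 9.76 and 9.88 in Z138. UHRF1, which carries DNA methylation over to the new strand, read 9.69 and 9.30 in REC-1 and 9.52 and 9.66 in Z138. Its 2 brighter probe sets gave -0.40 and -0.53 in REC-1, and its dimmest, with a mean signal of 3.57, gave 0.50. The histone chaperone genes CHAF1A and CHAF1B differed by -0.31 and -0.12, and SLBP, which binds the ends of histone mRNAs, by -0.20.

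**Figure D2:**
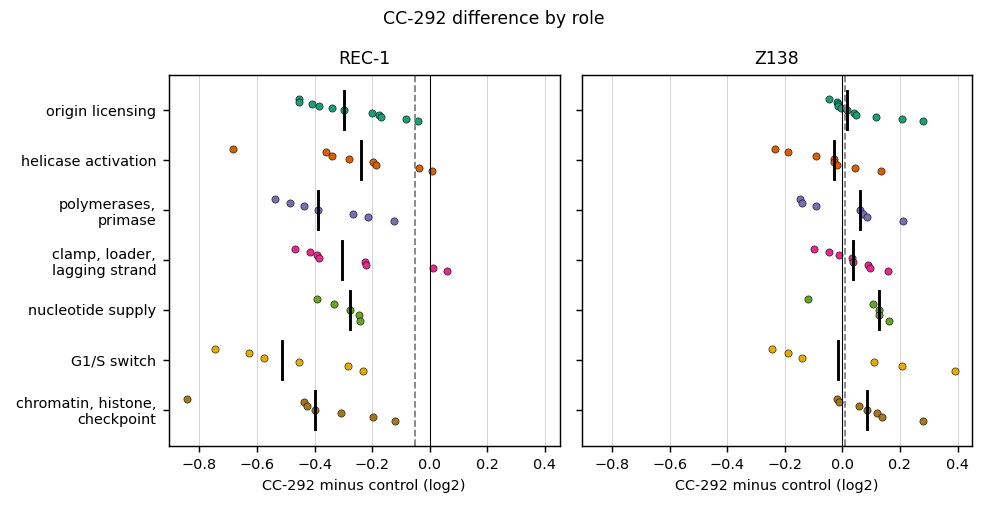
CC-292 minus control (log2, horizontal axis) for each of the 52 genes by role, in REC-1 (left) and Z138 (right). Each point is 1 gene, the black bar is the median of the role and the dashed line the median of all genes kept. The role medians lie between -0.51 and -0.24 in REC-1 and between -0.03 and 0.13 in Z138.

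Z138 showed no such shift. Of the 52 members 23 were below 0, against 48.1% of all genes kept, and 29 above 0, against 51.9%. The median was 0.04, against 0.01 over all genes kept. Lower by at least 0.32 were 0 members (9.05% of all genes kept) and higher 1 (8.58%). At 1.5-fold there were 0 lower and 0 higher (2.52% and 2.18% of all genes kept), and at 2-fold 0 and 0 (0.351% and 0.213%). The highest were CCNE2 at 0.39 (SD 0.11 over 2 probe sets), CLSPN at 0.28, CDC6 at 0.28, PRIM1 at 0.21 and CDT1 at 0.21, and the lowest E2F1 at -0.25, GINS2 at -0.23, E2F2 at -0.19, MCM10 at -0.19 and POLD1 at -0.15. The SD over members was 0.13, within the pooled SD of 0.16 between their probe sets.

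The lines were set against each other by taking the Z138 difference from the REC-1 difference. This quantity was below 0 for 50 of 52 members, against 56.9% of all genes kept, and above 0 for POLA1 (0.02) and LIG1 (0.02). Its median was -0.32, against -0.06 over all genes kept, and 27 members were lower by at least 0.32 (22.6% of all genes kept) and 0 higher (17.2%). At 1.5-fold 7 were lower and 0 higher (8.81% and 7.72% of all genes kept), and at 2-fold 1 and 0 (2.04% and 2.07%). The lowest were CLSPN at -1.13, CCNE2 at -0.96, CCNE1 at -0.85, CDC25A at -0.83, CDC6 at -0.69 and CDT1 at -0.66. Below 0 in REC-1 and above 0 in Z138 were 26 members, against 31.4% of all genes kept, and below 0 in both lines were 23, against 26.5%. This comparison uses all 4 arrays and leaves no error to test it with. The poly-A spike-ins, with medians of -0.17 in REC-1 and 0.09 in Z138, differed between the lines in the same direction. Their part in it was not tested. Across the 52 members the REC-1 and Z138 differences, which share no array, had Pearson r = -0.25 and Spearman rho = -0.23, as a description of genes that are not independent.

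The average CC-292 difference over both lines was the only treatment contrast with an error. It was fitted with limma with cell line as a block, which leaves 1 residual degree of freedom. It was below 0 for 49 of 52 members (median -0.13), against 5951 of 10823 genes kept (median -0.02). An adjusted p of 0.05 was passed by 0 members and 0 of 10823 genes (0%). At an unadjusted p under 0.05 there were 0 members and 472 genes (4.36%). The spread in this fit includes the difference between the lines in their response, and the smallest adjusted p of a member was 1.00.

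Between the control arrays, more members were lower than higher in REC-1. The REC-1 control minus Z138 control difference was below 0 for 37 of 52 members, against 48.9% of all genes kept, with a median of -0.22, against 0.02. Lower in REC-1 by at least 0.32 were 23 members (31.5% of all genes kept) and higher 10 (33.2%). At 1.5-fold 14 were lower and 3 higher (21.7% and 22.2% of all genes kept), and at 2-fold RFC3, CDC6 and GINS4 were lower (3 members, against 12.4%) and CCNE1 and CDC25A higher (2 members, against 11.9%). The SD over members, 0.62, was larger than for either CC-292 difference, but below the 1.16 over all genes in the same range of brightness. These values share the control arrays with the CC-292 differences and are not independent of them. The hybridization controls read higher in REC-1 by a median of 0.33, and their part in this comparison was not tested.

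The same fit tested the line difference averaged over both treatments. Of 52 members 17 were called lower in REC-1, against 23.1% of all genes kept, and 1 higher, against 21.6%, at an adjusted p of 0.05 (limma, Benjamini-Hochberg). At an unadjusted p under 0.05 there were 24 members, against 53.0% of all genes kept. With an intensity trend in limma, 25 members were called lower and 6 higher, and 5734 of 10823 genes were called in either direction. RFC3 had the largest difference, -2.04 (SE 0.17, adjusted p = 0.000586 by limma), and its 4 probe sets gave -2.55 to -1.72 on the control arrays. CDC6 followed at -1.66 (SE 0.21, adjusted p = 0.00258 by limma). GINS4 was lower by 1.31, CDT1, DTL and MCM10 by 1.24 each, CDC7 by 0.98 and MCM6 by 0.98. The other members called lower were DUT, TIPIN, TK1, POLA1, E2F2, ORC6, MCM7, FEN1 and CCNE2, of which E2F2 read higher in REC-1 on its other probe set. The lower genes thus came from all 7 roles, with 5 of 11 licensing genes among them. Only CCNE1 was called higher in REC-1, at 1.06 (SE 0.24, adjusted p = 0.0168 by limma). CDC25A, at 0.69 higher (adjusted p = 0.0610 by limma), did not pass. The error of this fit is again the difference between the lines in their CC-292 response, moderated over genes, and no group has a replicate culture.

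CCNE1 and CCNE2 therefore stood in opposite order in the lines. On the control arrays CCNE1 was 1.49 higher and CCNE2 0.39 lower in REC-1 than in Z138, and on the CC-292 arrays the differences were 0.63 and -1.35. With CC-292 the number of members below 0 in REC-1 minus Z138 was 45, against 52.1% of all genes kept, and the median was -0.48. Lower by at least 0.32 were then 36 (34.2% of all genes kept) and higher 1 (30.3%), which was CCNE1. The 45 members below 0 included all 37 that were below 0 on the control arrays, and the other 8 were ORC1, RFC2, POLA2, PRIM1, POLD3, RRM2, UHRF1 and CLSPN.

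**Figure D3:**
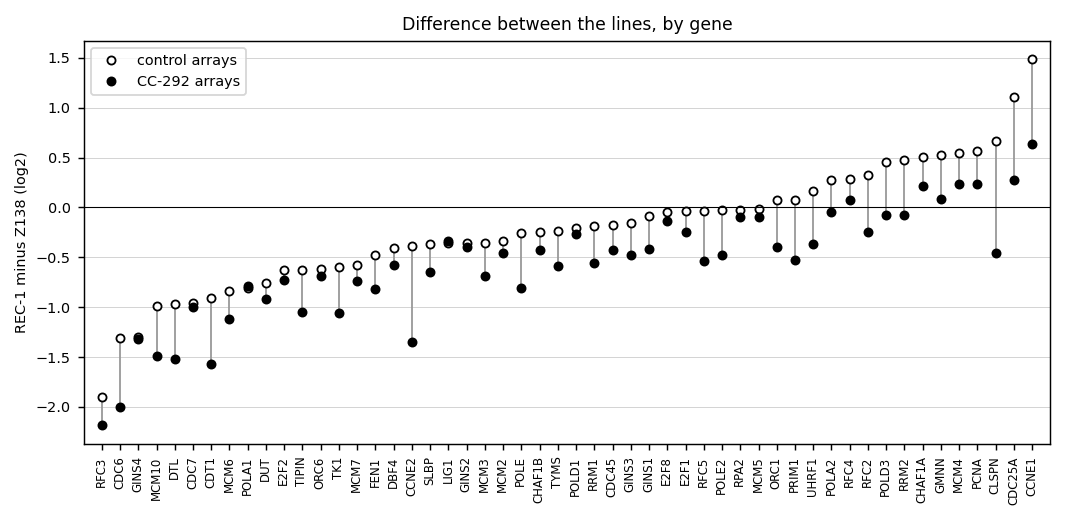
REC-1 minus Z138 (log2, vertical axis) for each of the 52 genes, on the control arrays (open points) and on the CC-292 arrays (filled points), ordered by the control difference. RFC3 is lowest, at -1.90 on the control arrays, and CCNE1 highest, at 1.49, and filled points lie below open points for 50 of 52 genes.

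Members with and without an E2F match had like REC-1 differences, with no test run. The 27 members with a match in a promoter had a median REC-1 difference of -0.34, with 14 lower by at least 0.32, and the 18 with a promoter but no match had a median of -0.34, with 10 lower. In Z138 the medians were 0.04 and 0.02. LIG1 and CDC7, which were not lower in REC-1, held a match, whereas CCNE1 and MCM10, among the lowest, held none in this window.

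Genes around the members were read from 3 further lists. Of 34 other replication genes kept, 29 were below 0 in REC-1 with a median of -0.16, but 3 were lower by at least 0.32 and 2 higher, and the Z138 median was 0.02. The chromatin remodeller gene HELLS was at -0.65 (SD 0.16 over 3 probe sets) and the histone chaperone gene ASF1B at -0.63 (SD 0.42 over 3 probe sets). POLD4, the small subunit of polymerase delta, went the other way, at 8.66 and 9.75 in REC-1, 1.09 higher (SD 0.08 over 3 probe sets), and at 6.12 and 5.97 in Z138. WDHD1 was at -0.28 in REC-1 and 0.57 in Z138, and MTBP at 0.47 and -0.35.

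Among 25 G1 control and RB-E2F genes kept, 15 were below 0 in REC-1 with a median of -0.11, 4 were lower by at least 0.32 and 4 higher. RBL2, which encodes the pocket protein p130 of resting cells, was 0.82 higher in REC-1 (mean 0.43, SD 0.60 over 4 probe sets) and 0.04 in Z138. CDKN2D, an inhibitor of the cyclin D kinases, was 0.78 higher in REC-1 on 1 probe set and at -0.35 in Z138. The repressor gene E2F7 was at -0.52 in REC-1 (SD 0.12 over 2 probe sets) and -0.32 in Z138. SKP2, part of the ligase that degrades p27, was at -0.31 in REC-1 (SD 0.03 over 2 probe sets) and 0.54 in Z138 (SD 0.49). CDK6 did not reach the brightness minimum in REC-1 and was 0.77 higher with CC-292 in Z138 (SD 0.42 over 4 probe sets). In the limma fit of the average CC-292 difference, 0 genes of these lists were called.

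The 36 G2/M and mitosis genes were close to the members in both lines, with 34 below 0 and a median of -0.29 in REC-1 and 12 below 0 and a median of 0.04 in Z138. Lower by at least 0.32 in REC-1 were 13 of them, led by HMMR, ANLN, TPX2, BUB1B and KIF20A (-0.55 to -0.40). Over 4 probe sets each, HMMR had a mean of -0.23 (SD 0.25) and ANLN of -0.23 (SD 0.19). TPX2, BUB1B and KIF20A had 1 probe set each. No difference between the lists was tested. Between the lines the mitotic list had a control median of 0.09, with 17 of 36 below 0, where the members had -0.22 and 37 of 52.

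**Figure D4:**
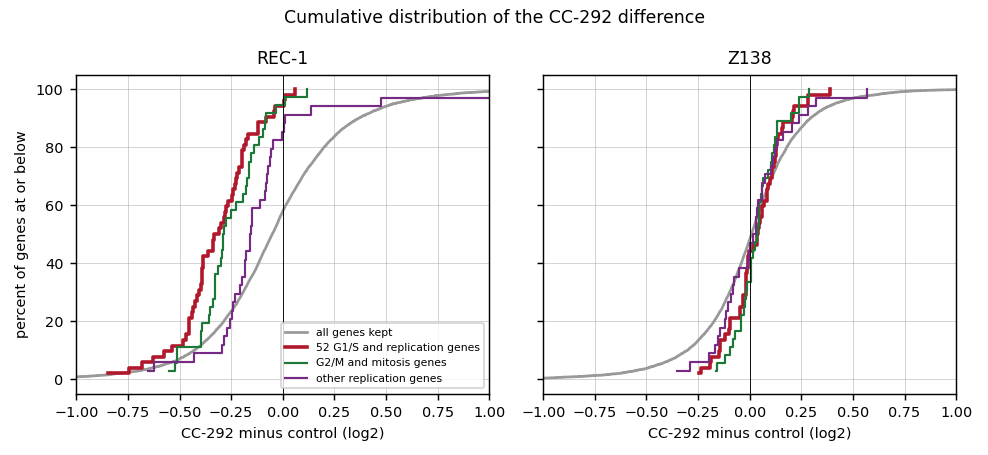
Cumulative percent of genes (vertical axis) at or below each CC-292 minus control difference (log2, horizontal axis) in REC-1 (left) and Z138 (right), for all genes kept, the 52 genes, the mitotic list and the other replication genes. In REC-1 the medians are -0.05, -0.32, -0.29 and -0.16, and in Z138 they are 0.01, 0.04, 0.04 and 0.02. The horizontal axis ends at 1 in either direction.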

How the data were processed

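Total RNA of 4 cultures was labelled as biotinylated cRNA from 150 ng, per the labels' protocols, and measured on 4 Affymetrix arrays. The authors deposited 1 log2 signal per probe set and array, and RMA and Affymetrix Expression Console 1.1 are named in the submitters' processing notes. The log2 scale was inferred from their range, 2.18 to 14.26. Since quartiles hardly differ between the 4 columns, a shared shift of most genes could not be seen.

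Of 49386 probe sets, 45259 had 1 gene symbol in the probe table used, 1327 had several and 2800 had none, and only the first were used. A gene took its brightest probe set and needed at least 1 array at or above the median of the whole table (4.63) to be kept. A 70th percentile (6.61) left 7707 genes. Averages over 4 arrays were tested in R 4.3.3 by limma 3.58.1 (lmFit, eBayes, cell line and treatment as factors, Benjamini-Hochberg over 10823 genes), checked on simulated data. Other steps used numpy 2.4.6, pandas 2.3.3 and matplotlib 3.10.9 in Python 3.11.15. The number of arrays, 1 per group, limits the precision.

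All 52 genes are accounted for. Values on all 4 arrays are given for those lowest or highest in a comparison, those whose probe sets disagree and a fixed set of key genes, and up to 5 genes with the largest CC-292 difference are named from each further list. The promoters shown were chosen after their values were seen. The members and lists were chosen with earlier results of these data known. Alternatives were other brightness minimums, array centring, quantile and cyclic loess normalization, mean or median of probe sets, and other folds. The limma fits were also run with a trend, and with only the tested factor in the model.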

Additional observations from a re-analysis of the deposited data

Results flagged for a closer look

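CCNE2 was the only one of the 52 genes that differed by at least 0.32 (log2) in opposite directions in the lines, lower in REC-1 (-0.57) and higher in Z138 (0.39) with CC-292. The REC-1 difference minus the Z138 difference was -0.96, and both probe sets of the gene gave the same directions. With the mean of probe sets CCNE2 (-0.66 and 0.31) was no longer such a gene, whereas CDC6 (-0.53 and 0.41) and CDC25A (-0.63 and 0.36) were. With 1 array per group this difference was not tested. Groups of 1 array allow no check for a sample that stands apart.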

How the results depend on the processing

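With other brightness minimums, array centring, quantile or cyclic loess normalization, and the mean or median of probe sets, the median of the 52 genes stayed between -0.32 and -0.26 in REC-1, 0.01 and 0.05 in Z138, -0.24 and -0.15 between controls, and -0.33 and -0.25 for the REC-1 minus Z138 difference. The number below 0 lay between 48 and 51 in REC-1, and between 44 and 51 for the REC-1 minus Z138 difference. With quantile or cyclic loess normalization, 22 members were lower by at least 0.32 in REC-1, in place of 26. A threshold of 1.5-fold left 4 lower members in REC-1, 0 higher members in Z138, 14 lower and 3 higher between controls, and 7 lower for the difference between lines. At 2-fold these numbers were 0, 0, 3, 2 and 1. With the mean of probe sets 2 members were higher by at least 0.32 in Z138, CDC6 and CDC25A, and CCNE2 was not. The average CC-292 difference called 0 members under every limma setting run. For the line difference, limma with an intensity trend called 31 members in place of 18, and all 18 were among them. Of 10823 genes, 5734 were called in place of 4840, and the cause was not tested. E2F2 turned its sign between controls, to 0.32 with both the mean and the median of its 2 probe sets, and to 0.14 for the averaged line difference with the mean. Without treatment as a factor, limma called 21 members for the line difference, and 5075 of 10823 genes. In the fit of the average CC-292 difference, the block of cell line pairs the arrays of a line. No other pairing was possible because no label gives a replicate number. Signal over background limits CLSPN most.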

Other observations

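The 2 probe sets of E2F2 disagreed between the lines but not within REC-1. The brighter read 8.55 and 8.27 in REC-1 and 9.18 and 8.99 in Z138, and the dimmer read 6.14 and 5.86 in REC-1 and 4.87 and 5.21 in Z138. Both gave -0.28 in REC-1, whereas the difference between controls was -0.63 on one and 1.26 on the other. The call of E2F2 as lower in REC-1 therefore rests on its brighter probe set.

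Of the 4 probe sets of RFC3, the gene with the largest difference between the lines, all were lower in REC-1 on the control arrays, by at least 1.72. Its REC-1 difference with CC-292 ranged from -1.07 to 0.01 over the same 4 probe sets, and the lowest of these values came from a probe set that did not reach the brightness minimum in REC-1.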
